A study of Homo sapiens with 6 samples.

Results

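The intermediate filament genes VIM, KRT7, KRT8, KRT18, KRT19, KRT80, KRT81 and KRT86 were examined together with PLEC, a linker of filaments to other structures, and NES, a further filament gene. These 10 genes were taken by symbol from a table of 65198 genes, and 6 of them reached the mean of 1 FPKM required for the test across 15934 genes. The cells were MDA-MB-231, a human line from a basal-like breast cancer with a mesenchymal appearance. The shHOTAIR group carried a tetracycline-inducible hairpin against HOTAIR, a long non-coding RNA of the HOXC locus, and the shCtrl group carried an inducible scrambled hairpin. Doxycycline at 1 µg/ml was given for 96 h in either group, so the shCtrl cells had the drug and a hairpin as well. There were 3 independent repeats of each derivative, and since a group is a single derivative in the labels, p-values measure only the spread between such repeats. The comparison asked how transcripts differed between the cells with the HOTAIR hairpin and the cells with the scrambled one.

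Intermediate filaments are rope-like polymers that give cells mechanical strength. Vimentin, a type III protein, is the filament of mesenchymal cells, while keratins are the filaments of epithelia and form only when a type I chain pairs with a type II chain. KRT8 (type II) pairs with KRT18 (type I) in simple epithelium, KRT7 and KRT19 join them in ductal cells, and many breast cancer lines with a mesenchymal appearance hold vimentin and keratins side by side. A rise of vimentin with a loss of keratins is widely used to follow the epithelial-mesenchymal transition.

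Expression was given as FPKM, fragments scaled by transcript length and library depth, so levels of different genes can be set side by side. The number of fragments per library is not known, but the spacing of low values put the worth of 1 fragment at 0.595 to 0.717 in shHOTAIR and 0.812 to 1 in shCtrl, relative to shCtrl 1, so the shHOTAIR libraries were deeper. HOTAIR was listed at 0 in shHOTAIR 1 and 2 and at 0.0113 FPKM in shHOTAIR 3, against 0, 0.0128 and 0.0132 FPKM in shCtrl 1, 2 and 3, so its loss could not be checked at this depth. The epithelial adhesion genes CDH1 and EPCAM stayed at or below 0.114 FPKM in all 6 libraries, and the basal keratins KRT5 and KRT14 were at or near 0 (KRT14 at 0.0916 FPKM in shHOTAIR 1). CD44 and CAV1, which mark lines of this kind, were high, CD44 at 480 ± 43.9 FPKM in shHOTAIR and 475 ± 26.03 FPKM in shCtrl (SD, n = 3 each). Of 8 basal and claudin-low markers 4 reached a mean of 1 FPKM, and TP63 and KRT17 had means of 0.131 and 0.0583 FPKM over all libraries. Of 8 luminal and epithelial markers 2 reached it, ERBB2 (20.5 FPKM over all libraries) and GATA3 (1.53 FPKM). Of 8 fibroblast, 7 leukocyte and 5 endothelial markers 2, 0 and 1 reached a mean of 1 FPKM. The summed level of the fibroblast list was 4.44 to 5.71 FPKM in shHOTAIR and 2.65 to 3.37 FPKM in shCtrl, and that of the endothelial list 2.23 to 3.00 FPKM in shHOTAIR and 1.59 to 1.97 FPKM in shCtrl. The leukocyte list summed to 0.406 to 0.829 FPKM in shHOTAIR and 0.856 to 2.19 FPKM in shCtrl. The part of such cells in the results was not tested.

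VIM (ENSG00000026025) lies on chromosome 10, 17228259 to 17237593 on GRCh38, plus strand. A pair of stretches are shown, from before an annotated start of this gene and from an exon that another gene also covers. Values per gene do not show where its transcripts began. The first holds the 250 bases before the VIM start in RefSeq (GRCh38.p14, chr10:17227991-17228240, plus strand), with the match to the GC box in capitals. The second is the 129 coding bases of exon 5 of 10 (GRCh38, chr10:17233770-17233898, plus strand, from the GENCODE transcript) that an antisense gene described below also covers on the opposite strand.
VIM promoter: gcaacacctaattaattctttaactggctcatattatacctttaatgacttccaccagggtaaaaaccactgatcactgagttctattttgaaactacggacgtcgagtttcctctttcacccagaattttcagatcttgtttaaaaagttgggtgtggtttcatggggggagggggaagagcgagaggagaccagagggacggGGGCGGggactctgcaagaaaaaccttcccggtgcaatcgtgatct
VIM exon 5: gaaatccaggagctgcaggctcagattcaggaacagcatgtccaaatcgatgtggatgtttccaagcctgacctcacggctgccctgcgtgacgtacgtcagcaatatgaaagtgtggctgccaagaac
The promoter stretch held 1 match to GGGCGG, a GC box, searched on both strands, which 42.6% of 35116 RefSeq promoters of that length held. It held no match to CAGGTG (the E box form bound by ZEB and SNAI factors, in 17.5% of promoters), TATAAA (10.7%) or TGANTCA (an AP-1 site, 6.57%), all searched on both strands. Its GC content was 46% where the median promoter had 58%. These 250 bases lie before a non-coding exon 1, and exon 2, which holds the first coding bases, begins at 17229276. No other stretch of VIM was searched for these motifs, so their absence holds for this stretch only.

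VIM was lower in shHOTAIR. Its level was 361, 405 and 411 FPKM in shHOTAIR 1, 2 and 3, against 906, 960 and 977 FPKM in shCtrl 1, 2 and 3. All 3 shHOTAIR values lay below all shCtrl values, and each group was tight. The mean of 393 ± 27.3 FPKM in shHOTAIR was 41.4% of the 948 ± 37.1 FPKM in shCtrl (SD, n = 3 each). On the log2(FPKM + 1) scale the change was -1.27 (95% interval -1.45 to -1.09, limma adjusted p = 0.000616). VIM stood between rank 248 and 290 of 19669 protein-coding genes in the shHOTAIR libraries and between 83 and 87 in the shCtrl libraries, so it remained the highest of the 10 genes in every library of both groups.

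Among all genes tested 23.8% passed an adjusted p of 0.05, 11.5% higher and 12.4% lower in shHOTAIR, and 43.0% had groups that did not overlap. With each library rescaled to an equal sum over protein-coding genes the calls were 60.1% higher, where 48.2% were higher on the deposited scale. Of the 6 members tested 3 passed higher (KRT8, KRT18 and PLEC), 2 passed lower (VIM and KRT19) and KRT80 did not pass. With a replicate block, where 10.9% of all genes passed, 5.18% higher and 5.74% lower, 3 members passed (VIM, KRT18 and PLEC). The directions of these 6 were the same under every scaling tried.

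**Figure D1:**
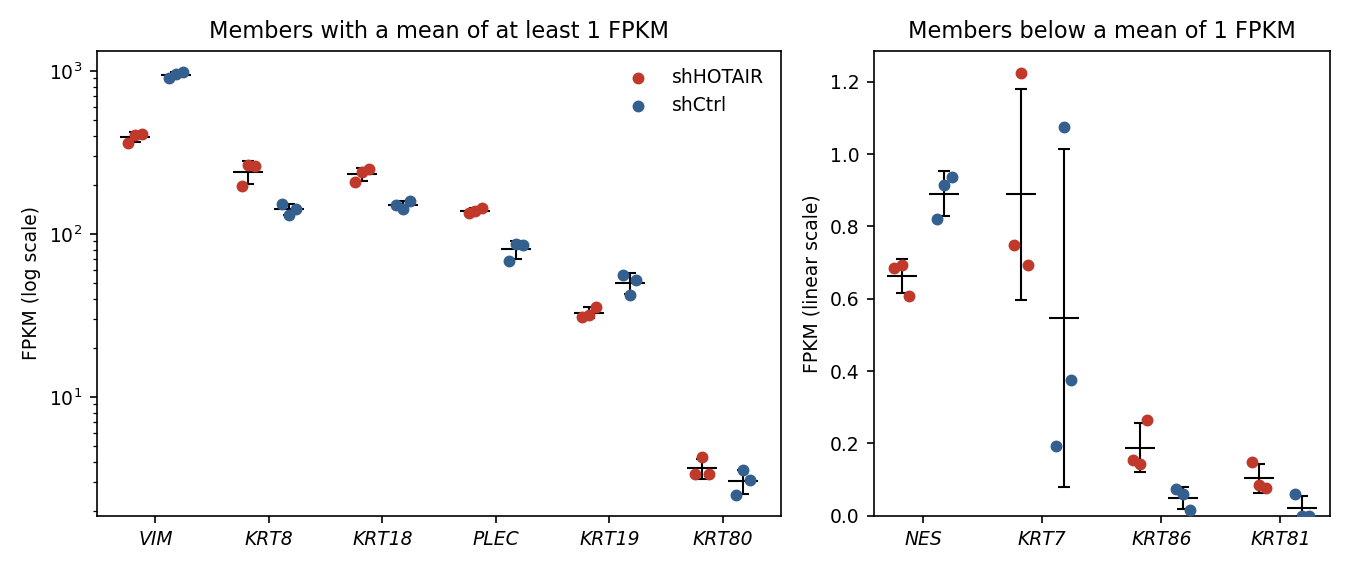
FPKM of the 10 genes in each library, with points for the 3 libraries of shHOTAIR (red, left) and of shCtrl (blue, right) and a bar with whiskers for mean and SD. The left panel has a logarithmic axis and holds the 6 genes tested, of which VIM sat at 361 to 411 FPKM in shHOTAIR and 906 to 977 FPKM in shCtrl, and the right panel has a linear axis and holds the 4 genes below a mean of 1 FPKM.

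The neighbours of VIM were lower too. Of the 50 nearest tested protein-coding genes on chromosome 10, which span 15.1 Mb, 42 passed lower and 0 higher, and 1 had a change above 0. The median log2 change of the 50 was -0.71, and 3 of them had a more negative change than VIM. Of 443 protein-coding genes tested on the whole chromosome 67.3% passed lower, against 14.9% of all 11587 protein-coding genes. With the per-library mean of the 50 neighbours subtracted, the log2 change of VIM was -0.50 (95% interval -0.66 to -0.34, limma adjusted p = 0.00728), in a fit where 16.1% of genes passed, 8.04% higher and 8.11% lower. The same 5 members passed in it. VIM thus stayed lower than the mean of its neighbours, by a smaller log2 change than on the deposited scale. The interval measures the spread between libraries and leaves out that among the 50 neighbours, whose changes ran from -1.87 to 0.015. The added 1 also shrinks the changes of neighbours of low level more than that of VIM. What moved the region was not tested.

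**Figure D2:**
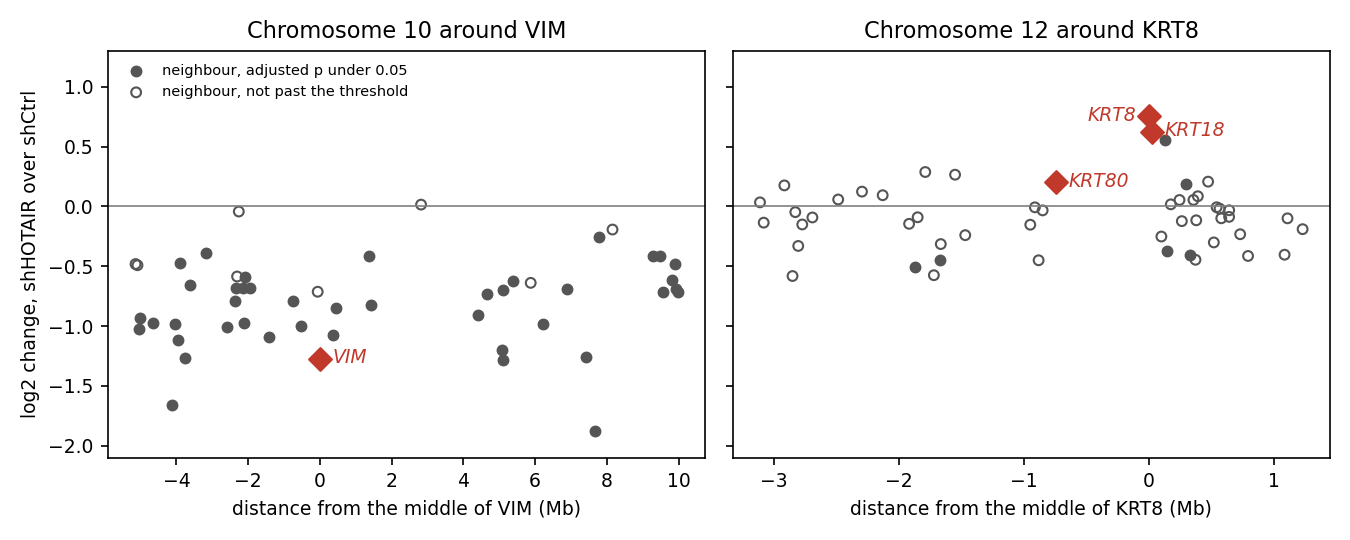
Log2 change (shHOTAIR over shCtrl, log2(FPKM + 1) scale) of the 50 nearest tested protein-coding genes against their distance in Mb, around VIM on chromosome 10 and around KRT8 on chromosome 12. Filled points passed an adjusted p of 0.05, and red diamonds are the named genes. Around VIM 42 of 50 neighbours passed lower, and around KRT8, whose 50 include KRT18 and KRT80, the median was -0.10.

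A pair of antisense genes overlap VIM and moved with it. AL133415.1 (ENSG00000234961, minus strand, 17233325 to 17234833) lies inside VIM, with 87.7% of its 706 exonic bases in VIM exons. Its level was 99.9, 114 and 111 FPKM in shHOTAIR 1, 2 and 3, against 277, 268 and 287 FPKM in shCtrl 1, 2 and 3 (log2 change -1.35, limma adjusted p = 0.000470). As a percentage of the VIM level it was 27.6 ± 0.464 in shHOTAIR and 29.3 ± 1.34 in shCtrl (SD, n = 3 each), so it stood in nearly the same proportion to VIM in all 6 libraries, at 27.1 to 30.6%. VIM-AS1 (ENSG00000229124, minus strand, 17214239 to 17229985) shares 641 of its 1992 exonic bases with VIM. Its level was 4.10, 4.42 and 4.17 FPKM in shHOTAIR, against 11.9, 12.8 and 11.4 FPKM in shCtrl 1, 2 and 3 (log2 change -1.32, limma adjusted p = 0.000483). The sources used here do not say whether counting was stranded. Where exons overlap, fragments of VIM and of these antisense genes therefore cannot be told apart. Values per gene do not show how much of the VIM-AS1 level came from its shared bases.

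The 5 tested genes with profiles nearest to that of VIM over the 6 libraries, by Euclidean distance of centred log2(FPKM + 1) values, were CXCR4 (distance 0.129), AL133415.1 (0.139), HIST1H2BJ (0.167), ZNF438 (0.173) and VIM-AS1 (0.188). CXCR4, a chemokine receptor encoded on chromosome 2, was at 13.4, 14.3 and 15.2 FPKM in shHOTAIR, against 37.5, 37.1 and 38.3 FPKM in shCtrl. AL133415.1, VIM-AS1 and ZNF438 lie on chromosome 10. Profiles over 6 libraries in 2 groups are dominated by the difference between the groups, so many genes with a like fold change lie close.

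KRT8 and KRT18, the keratin pair of simple epithelium, were higher in shHOTAIR. KRT8 (ENSG00000170421, chromosome 12, 52897187 to 52949954, minus strand) was at 197, 263 and 261 FPKM in shHOTAIR 1, 2 and 3, against 151, 130 and 143 FPKM in shCtrl 1, 2 and 3. The groups did not overlap, and shHOTAIR 1 lay closest to shCtrl. The mean was 241 ± 37.5 FPKM in shHOTAIR and 141 ± 10.6 FPKM in shCtrl (SD, n = 3 each), a log2 change of 0.75 (95% interval 0.42 to 1.08, limma adjusted p = 0.0127). The call was lost without shHOTAIR 2, shCtrl 2 or shCtrl 3, with adjusted p up to 0.0526.

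KRT18 (ENSG00000111057, chromosome 12, 52948871 to 52952901, plus strand) was at 207, 239 and 251 FPKM in shHOTAIR, against 149, 142 and 160 FPKM in shCtrl. Here too shHOTAIR 1 was the lowest of its group, and the groups did not overlap. The mean was 232 ± 22.4 FPKM in shHOTAIR and 150 ± 9.27 FPKM in shCtrl, a log2 change of 0.62 (95% interval 0.40 to 0.85, limma adjusted p = 0.00706), and the call held without each of the 6 libraries in turn (adjusted p 0.00819 to 0.0354). The levels of the 2 partners could not be separated within either group. KRT8 stood at 1.03 ± 0.0755 times KRT18 in shHOTAIR and at 0.942 ± 0.0629 times in shCtrl (SD, n = 3 each).

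The region of chromosome 12 around this pair did not move as the region of VIM did. Of the 50 nearest tested protein-coding genes of KRT8, 3 passed higher and 4 lower, their median log2 change was -0.10, and all 50 had a change below that of KRT8. With the neighbours subtracted the log2 change was 0.85 for KRT8 (limma adjusted p = 0.00856) and 0.71 for KRT18 (0.00370).

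These genes overlap each other and have many copies in the genome. KRT8 and KRT18 lie on opposite strands and share 525 exonic bases in GENCODE 29, which is 7.63% of the exonic bases of KRT8 and 16.3% of those of KRT18. Of the 50-base words of the longest coding KRT18 transcript 28.9% also occur on the same strand in transcripts of other genes, most of them KRT18 pseudogenes, against 1.88% for KRT8. The table held 67 KRT18 pseudogenes, of which 53 were above 0 in some library and none reached a mean of 1 FPKM. The highest stood at 0.268 FPKM, 0.14% of the level of KRT18. Of 50 KRT8 pseudogenes 1 reached 1 FPKM, KRT8P12, at 3.87 FPKM in shHOTAIR and 2.86 FPKM in shCtrl on average, and it was at 1.76% of the KRT8 level over all libraries. The sources used here do not say how fragments were split among such copies.

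Of the 5 genes with profiles nearest to that of KRT8, 4 are given here, the pseudogene WASH8P (distance 0.105), LSM6 (0.142), FURIN (0.153) and CECR7 (0.156). FURIN, a proprotein convertase, was at 24.9, 33.2 and 37.6 FPKM in shHOTAIR and 19.9, 17.4 and 19.1 FPKM in shCtrl. As for KRT8, shHOTAIR 1 was the lowest library of its group for each of these 4 genes, a likeness that the choice by profile favours.

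KRT19, a type I keratin without the tail domain that other keratins carry, was lower in shHOTAIR. The gene (ENSG00000171345, chromosome 17, 41523617 to 41528308, minus strand) was at 30.9, 31.8 and 35.7 FPKM in shHOTAIR 1, 2 and 3, against 56.1, 42.2 and 52.0 FPKM in shCtrl 1, 2 and 3. The groups did not overlap, and shCtrl 2 lay nearest to shHOTAIR. The mean was 32.8 ± 2.53 FPKM in shHOTAIR and 50.1 ± 7.15 FPKM in shCtrl (SD, n = 3 each), a log2 change of -0.59 (95% interval -0.89 to -0.29, limma adjusted p = 0.0207). The call was lost without shHOTAIR 1, shHOTAIR 2, shCtrl 1 or shCtrl 3, with adjusted p up to 0.0796. Its 50 neighbours on chromosome 17 had a median log2 change of -0.05, and with them subtracted the change of KRT19 was -0.55 (limma adjusted p = 0.0228).

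KRT80, a type II keratin of low level, was at 3.36, 4.25 and 3.33 FPKM in shHOTAIR 1, 2 and 3, against 2.51, 3.55 and 3.09 FPKM in shCtrl 1, 2 and 3. The groups overlapped, and replicate 2 was the highest in each. Its log2 change of 0.20 did not pass (95% interval -0.15 to 0.55, limma adjusted p = 0.362), and the interval holds both a small fall and a rise of up to 0.55.

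**Figure D3:**
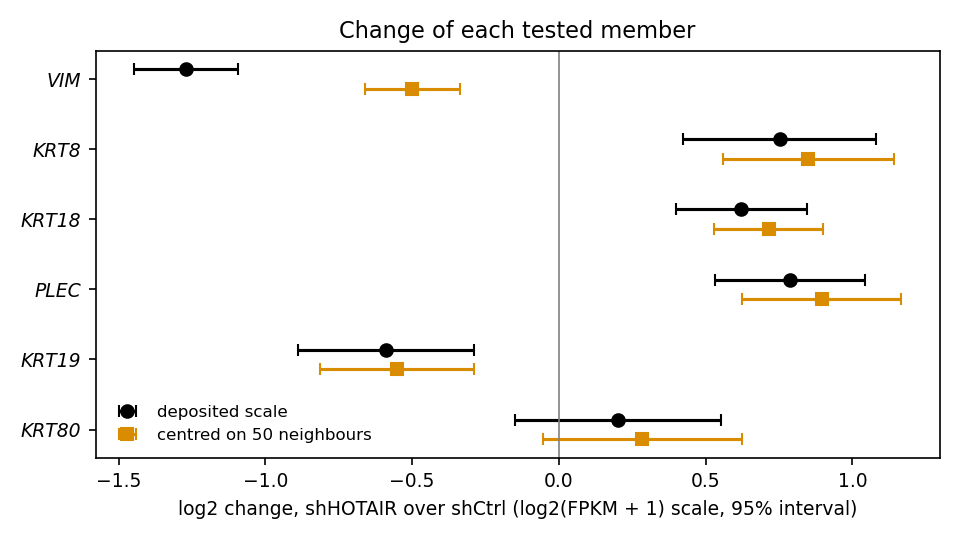
Log2 change (shHOTAIR over shCtrl, log2(FPKM + 1) scale) of the 6 genes tested, with 95% intervals, on the deposited scale (black circles) and after subtraction of the 50 nearest protein-coding genes (orange squares). VIM was at -1.27 and at -0.50 after subtraction, while KRT8, KRT18, PLEC, KRT19 and KRT80 kept nearly the same values.

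KRT7, KRT81 and KRT86, type II keratins of ducts (KRT7) and of hair (KRT81 and KRT86), were below a mean of 1 FPKM and were not in the test. KRT7 was at 0.749, 1.22 and 0.693 FPKM in shHOTAIR, against 0.192, 1.08 and 0.374 FPKM in shCtrl, with groups that overlapped (exact two-sided permutation test, p = 0.4). KRT86 was at 0.154, 0.143 and 0.265 FPKM in shHOTAIR, against 0.0740, 0.0601 and 0.0155 FPKM in shCtrl. KRT81 was at 0.148, 0.0843 and 0.0769 FPKM in shHOTAIR, against 0.0607 FPKM in shCtrl 1 and 0 in shCtrl 2 and 3. The groups of KRT86 and KRT81 did not overlap, which gives the smallest p that 3 against 3 allows in an exact two-sided permutation test (p = 0.1 for each). With no filter 36141 genes were fitted, of which 8.89% passed, 4.55% higher and 4.34% lower, and limma adjusted p was 0.106 for KRT86, 0.165 for KRT81 and 0.574 for KRT7. KRT81 and KRT86 resemble each other, with 38.4% of the 50-base words of KRT81 also in KRT86, so their fragments cannot be fully separated, and no fold is given at these levels.

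Of the noncoding genes that overlap these 3 keratins or KRT80, KRT7-AS was at 0.0779, 0.153 and 0.185 FPKM in shHOTAIR and 0.188, 0.152 and 0.216 FPKM in shCtrl. The pseudogene KRT87P was at 0.0330 and 0.0596 FPKM in shHOTAIR 2 and 3 and listed at 0 elsewhere. AC021066.1 (0.0937 FPKM in shHOTAIR 2), AC121757.1 (0.0596 in shHOTAIR 3) and LINC00592 (0.0298 in shHOTAIR 3) were each above 0 in 1 library.

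The balance of vimentin to keratin transcripts differed between the groups. The 7 keratins summed to 440, 539 and 552 FPKM in shHOTAIR 1, 2 and 3, against 360, 319 and 358 FPKM in shCtrl 1, 2 and 3. VIM stood at 0.821, 0.752 and 0.744 times that sum in shHOTAIR, against 2.52, 3.01 and 2.73 times in shCtrl. VIM transcripts were therefore fewer than the keratin transcripts in every shHOTAIR library and more in every shCtrl library, per length. Within the keratins KRT8 and KRT18 made up 92.6 ± 0.552% of the sum in shHOTAIR and 84.5 ± 0.837% in shCtrl (SD, n = 3 each). Summed type II over summed type I keratin was 0.922 ± 0.0734 in shHOTAIR and 0.725 ± 0.0313 in shCtrl, with no overlap between groups. The ratios are not corrected for the region of VIM, whose log2 change was -1.27 on the deposited scale and -0.50 with its chromosome 10 neighbours subtracted. They are descriptions of genes chosen with earlier results known, and carry no test. In bulk RNA, fewer cells with a gene and less RNA per cell cannot be told apart.

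**Figure D4:**
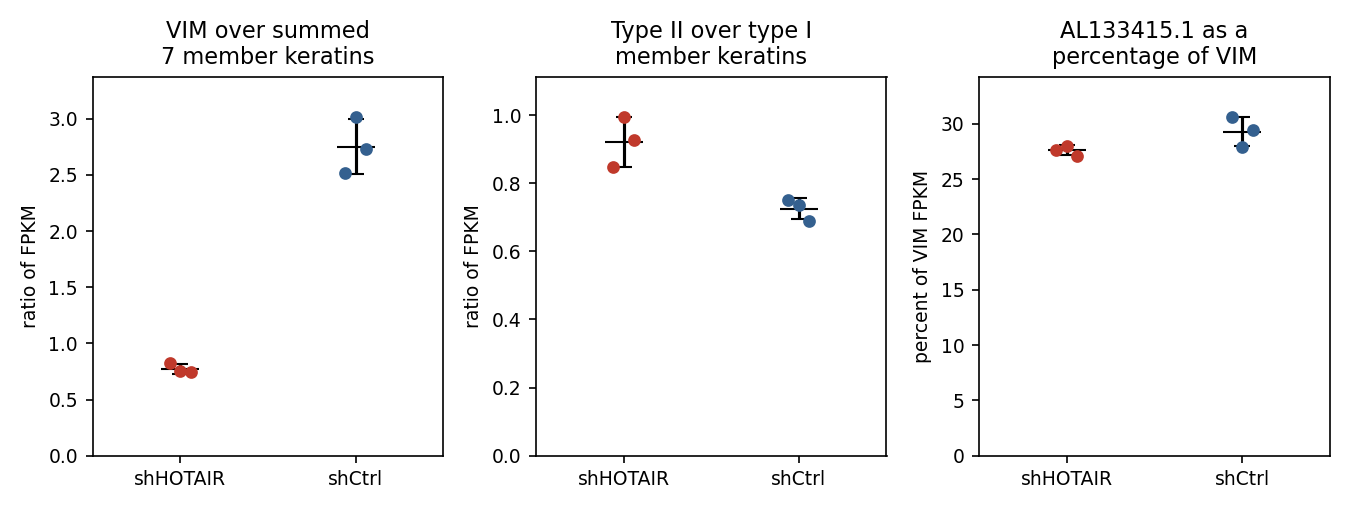
Ratios of FPKM by library, with points for the 3 libraries of shHOTAIR (red) and of shCtrl (blue), a bar for the mean and whiskers for the SD, on axes that start at 0. VIM over the summed 7 keratins was 0.744 to 0.821 in shHOTAIR and 2.52 to 3.01 in shCtrl, while AL133415.1 stayed at 27.1 to 30.6% of VIM in all 6 libraries.

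PLEC, or plectin, the giant plakin that ties vimentin and keratin filaments to hemidesmosomes, actin and the nuclear envelope, was higher in shHOTAIR. The gene (ENSG00000178209, chromosome 8, 143915147 to 143976734, minus strand) was at 134, 138 and 144 FPKM in shHOTAIR 1, 2 and 3, against 68.5, 86.9 and 85.4 FPKM in shCtrl 1, 2 and 3. The groups were far apart, and shCtrl 1 was the lowest library. The mean was 139 ± 5.36 FPKM in shHOTAIR, 1.73 times the 80.3 ± 10.2 FPKM in shCtrl (SD, n = 3 each; log2 change 0.79, 95% interval 0.53 to 1.04, limma adjusted p = 0.00521). The call held without each library in turn (adjusted p 0.00746 to 0.0286). Of its 50 neighbours on chromosome 8, 49 had a change below that of PLEC, and with them subtracted the change was 0.90 (limma adjusted p = 0.00597). MIR661, a microRNA gene of 89 bases within the span of PLEC, was at 18.5 FPKM in shHOTAIR 2 and 25.2 FPKM in shCtrl 2 and listed at 0 in the other 4 libraries. Few fragments can give a high FPKM at so short a length.

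NES encodes nestin, a type VI filament protein of neural and other progenitor cells that assembles with vimentin. It was at 0.684, 0.695 and 0.608 FPKM in shHOTAIR 1, 2 and 3, against 0.822, 0.916 and 0.936 FPKM in shCtrl 1, 2 and 3. All shHOTAIR values were below all shCtrl values (exact two-sided permutation test, p = 0.1, the smallest possible), and in the fit without a filter the limma adjusted p was 0.331.

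By level the order of the 6 tested members was VIM, then KRT8 and KRT18, then PLEC, KRT19 and KRT80 in shHOTAIR. In shCtrl the order was VIM, then KRT18 and KRT8, then PLEC, KRT19 and KRT80. The ranges of KRT8 and KRT18 overlapped within each group, and no other neighbours in this order did. The distance from VIM to the next gene shrank, since the highest keratin value in shHOTAIR was 263 FPKM beside a lowest VIM value of 361 FPKM, and in shCtrl 160 FPKM beside 906 FPKM.

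The remaining keratins were nearly silent. Of 48 other keratin genes 28 were listed at 0 in all libraries, 45 had a mean below 0.1 FPKM, and 2 reached a mean of 1 FPKM, KRT10 and KRT15, with 0 called. KRT10 was at 7.10 ± 0.828 FPKM in shHOTAIR and 7.25 ± 0.203 FPKM in shCtrl, and KRT15 at 1.38 ± 0.18 FPKM in shHOTAIR and 1.76 ± 0.123 FPKM in shCtrl (SD, n = 3 each). KRT34, a hair keratin named after its values were seen, was at 0.435, 0.376 and 0.566 FPKM in shHOTAIR, against 1.78, 1.17 and 1.14 FPKM in shCtrl, with a limma adjusted p of 0.0529 in the fit without a filter.

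Among 13 other filament and lamin genes 5 were tested and 1 passed, higher, where 23.8% of all genes tested passed. LMNA, which encodes lamins A and C of the nuclear lamina, was at 115 ± 12.7 FPKM in shHOTAIR and 81.2 ± 6.15 FPKM in shCtrl (log2 change 0.49, limma adjusted p = 0.0215). The call was lost without shHOTAIR 2, shHOTAIR 3, shCtrl 2 or shCtrl 3 (adjusted p up to 0.0736). The B-type lamins LMNB1 (log2 change 0.35) and LMNB2 (0.16) and synemin, SYNM (0.23), did not pass. LMNB2 passed with regional centring (0.23, limma adjusted p = 0.0454) and with each of the 3 rescalings (adjusted p 0.0283 to 0.0442), LMNB1 passed without shHOTAIR 1 (0.49, 0.0452), and SYNM passed without a trend (0.0347) and had a change of -0.12 with regional centring. The median of the 5 was 0.23, against -0.03 over all genes tested.

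Desmosomes anchor keratin filaments at junctions between cells. Of 18 plakins and desmosomal genes 11 were tested, of which 2 passed higher and 2 lower, with a median log2 change of 0.11. The shares over all genes tested were 11.5% higher and 12.4% lower. The desmosomal cadherin DSG2 was at 42.2 ± 5.07 FPKM in shHOTAIR and 29.2 ± 0.894 FPKM in shCtrl (log2 change 0.51, limma adjusted p = 0.0148), a call lost without shHOTAIR 2, shCtrl 1, shCtrl 2 or shCtrl 3 (up to 0.0607). Plakoglobin, JUP, was at 1.77 ± 0.364 FPKM in shHOTAIR and 0.644 ± 0.186 FPKM in shCtrl (limma adjusted p = 0.0354), a call lost without shHOTAIR 2, shHOTAIR 3, shCtrl 1 or shCtrl 3 (up to 0.0673). JUP reached the mean of 1 FPKM required for the test only through its shHOTAIR values, so its call is not independent of that filter. Plakophilin 2, PKP2, fell to 13.4 ± 0.489 FPKM in shHOTAIR, against 17.5 ± 0.861 FPKM in shCtrl (log2 change -0.36, limma adjusted p = 0.0106), and its call held without each library. The plakin DST, also known as dystonin, was at 69.3 ± 2.96 FPKM in shHOTAIR and 102 ± 18.7 FPKM in shCtrl (limma adjusted p = 0.0439), a call lost without any library but shCtrl 3 (up to 0.130). Desmoplakin, DSP, the main linker of keratin to desmosomes, was at 18.2 FPKM in both groups (log2 change 0.00, 95% interval -0.13 to 0.14).

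Hemidesmosomes anchor keratin filaments to the basement membrane through plectin and the integrin of ITGA6 and ITGB4. All 7 genes of this list were tested, 3 passed higher and 0 lower, 5 had a change above 0, and the median log2 change was 0.18. ITGB4, the integrin chain that binds plectin, was at 4.95, 3.30 and 4.73 FPKM in shHOTAIR 1, 2 and 3, against 1.91, 1.84 and 1.94 FPKM in shCtrl 1, 2 and 3 (log2 change 0.86, limma adjusted p = 0.0123). ITGA6 was at 270 ± 17.3 FPKM in shHOTAIR and 176 ± 7.08 FPKM in shCtrl (log2 change 0.61, limma adjusted p = 0.00282), and both integrin calls held without each library. The laminin chain gene LAMB3 had a log2 change of 0.18 that did not pass (limma adjusted p = 0.0712), but passed with regional centring (0.29, adjusted p = 0.0375) and with 2 of the 3 rescalings. LAMA3, another laminin chain gene, named after its values were seen, went the other way. It was at 13.4 ± 1.46 FPKM in shHOTAIR and 18.7 ± 3.23 FPKM in shCtrl, with groups that did not overlap. Its log2 change of -0.45 did not pass (limma adjusted p = 0.0803), but passed without shCtrl 3 (adjusted p = 0.0356).

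Of 22 proteins that bind or modify keratin or vimentin 17 were tested, 2 passed higher and 2 lower, and the median log2 change was 0.01. These counts are close to the shares over all genes tested, of which 11.5% passed higher and 12.4% lower. TUFT1, or tuftelin, was at 8.70 ± 0.360 FPKM in shHOTAIR and 6.29 ± 0.471 FPKM in shCtrl (limma adjusted p = 0.0133, up to 0.0558 without shHOTAIR 3 or shCtrl 3). The protein kinase C isoform PRKCE had a log2 change of 0.31 (limma adjusted p = 0.0267), a call lost without any library but shHOTAIR 3 (up to 0.0793). The 14-3-3 protein gene YWHAH (log2 change -0.20, limma adjusted p = 0.0289) lost its call without shHOTAIR 2, shHOTAIR 3, shCtrl 1 or shCtrl 2 (up to 0.0698). PAWR (log2 change -0.33, limma adjusted p = 0.0382) lost its call without any library but shHOTAIR 2 (up to 0.107), and with regional centring neither passed, with adjusted p of 0.103 for YWHAH and 0.228 for PAWR.

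**Figure D5:**
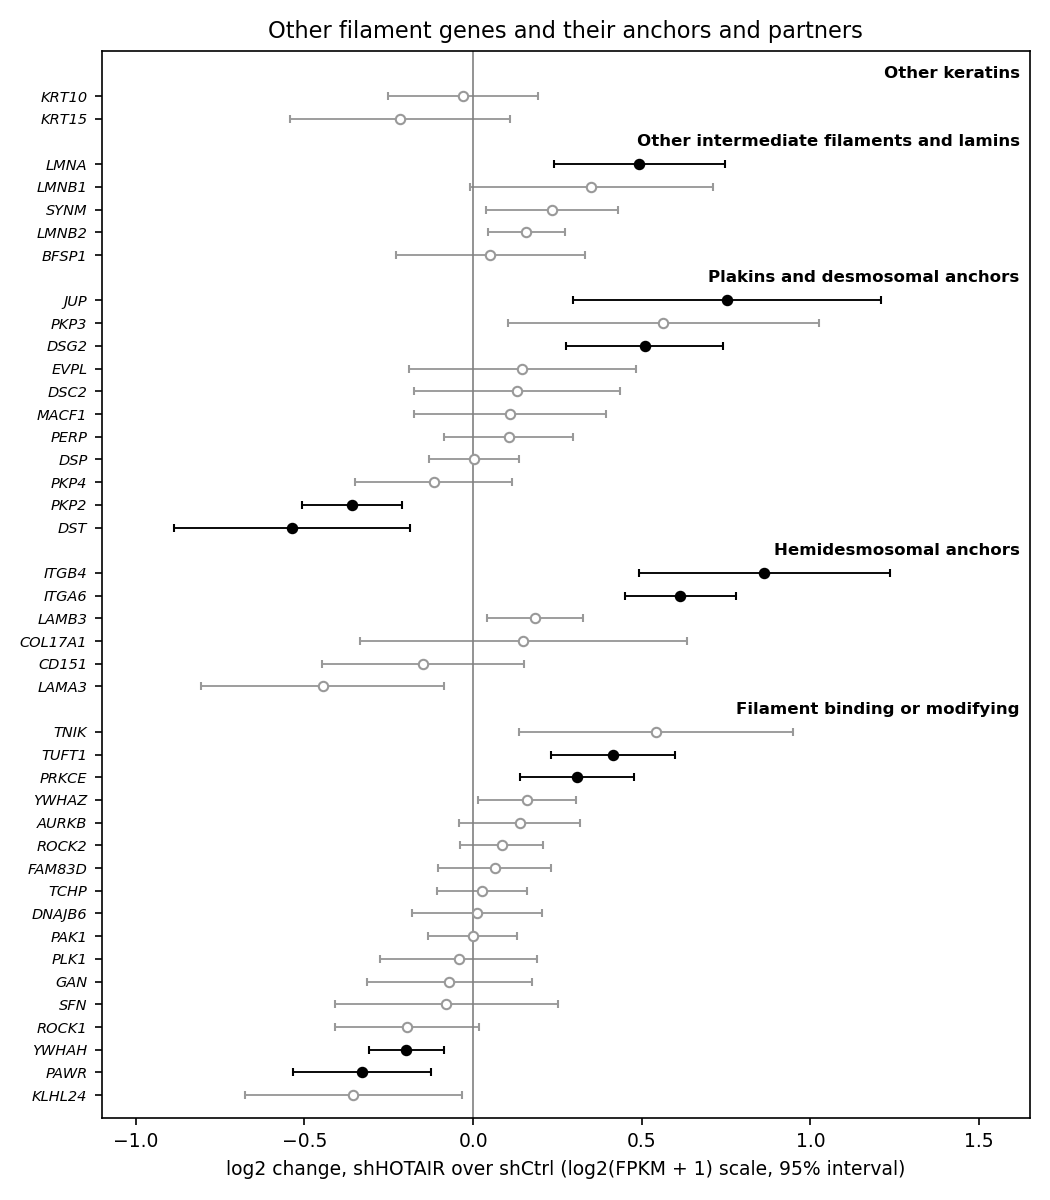
Log2 change (shHOTAIR over shCtrl, log2(FPKM + 1) scale) with 95% intervals of the tested genes of 5 lists (1 gene is not shown), in rows grouped by list. Black filled points passed an adjusted p of 0.05 over all genes and grey open points did not, and the filled points run from DST at -0.54 to ITGB4 at 0.86.

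Among markers of cell identity CAV1 was at 218 ± 11.0 FPKM in shHOTAIR and 116 ± 2.28 FPKM in shCtrl, and EGFR at 157 ± 7.96 FPKM in shHOTAIR and 76.7 ± 5.56 FPKM in shCtrl (SD, n = 3 each; limma adjusted p = 0.000725 and 0.00110). ZEB1, a repressor of epithelial genes that also lies on chromosome 10, was at 28.1 ± 3.67 FPKM in shHOTAIR and 36.6 ± 1.82 FPKM in shCtrl (limma adjusted p = 0.0461), a call lost without any library but shHOTAIR 1 (up to 0.138) and with regional centring, where the change was 0.18. The luminal factor GATA3, on chromosome 10 as well, was at 1.98 ± 0.189 FPKM in shHOTAIR and 1.08 ± 0.0195 FPKM in shCtrl (log2 change 0.52, limma adjusted p = 0.0366), and with regional centring its change was 1.16 (adjusted p = 0.00377). COL1A1, of the fibroblast list, was at 3.51 ± 0.282 FPKM in shHOTAIR and 1.33 ± 0.251 FPKM in shCtrl (limma adjusted p = 0.00572). ERBB2, PDGFRB and KDR did not pass.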

How the data were processed

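Poly(A)-selected RNA of 6 libraries, 3 shHOTAIR and 3 shCtrl, was measured. The libraries were grouped by title, which the column names match. The authors deposited FPKM values, one column per library. The build GRCh38 and the tools DESeq and TopHat2 2.0.13 are named per the submitters' processing notes. The sources used here do not state the program, annotation or strand setting behind the FPKM values. The file holds no counts, so the absolute depth is unknown, and relative depth was read from values between 0.001 and 0.1 FPKM (tolerance 0.01 on the log2 scale). Of 65198 gene rows 56807 matched GENCODE 29, which gave symbols, types and positions.

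The log2(FPKM + 1) values of genes averaging 1 FPKM or more were fitted, unscaled and with no replicate block, by limma 3.58.1 in R 4.3.3 with its intensity trend. P-values were adjusted by Benjamini-Hochberg over all 15934 genes, with a threshold of 0.05. Fold changes of low genes are understated by the added 1. Members below the filter had an exact two-sided permutation test of FPKM and a fit of all genes above 0. The script was tested on simulated data. For regional centring, the mean over the 50 nearest tested protein-coding genes was subtracted in each library, and genes of chromosomes with too few such genes or with no position were left out (15359 tested). Shared 50-base words were searched on both strands of all GENCODE 29 transcripts. Promoter sequences are from RefSeq (GRCh38.p14), whose table matched VIM, KRT8 and NES of the members looked up, with only that of VIM printed.

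Named genes were the 10 members, the 4 smallest p of each list, genes overlapping a member and above 0, the 5 profiles nearest to VIM and to KRT8, and HOTAIR. A pair of genes that these rules name are counted but not reported here by name. Members and lists were chosen with earlier results of these data known. Alternatives were pseudocounts of 0.1 and 0.01, no filter, a minimum mean of 5 FPKM, 3 rescalings, robust eBayes, a fit with no trend, a replicate block, regional centring and leaving out each library. Tables and plots were made in Python 3.11.15 with pandas 2.3.3, matplotlib 3.10.9, scipy 1.17.1 and numpy 2.4.6.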

Additional observations from a re-analysis of the deposited data

How the results depend on the processing

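The log2 changes of VIM, KRT18 and PLEC passed under every alternative run, with VIM between -1.30 and -0.50, KRT18 between 0.56 and 0.71 and PLEC between 0.68 and 0.90, and the value of VIM moved most with regional centring. KRT80 did not pass under any. Over the 6 tested members 92 of 101 alternative values kept side and direction, 9 lost the call (KRT8 and KRT19, without single libraries or with the replicate block) and 0 reversed. Genes called numbered 3797, 2480 with regional centring and 2470 to 3159 with 1 library left out, lowest without shCtrl 3 (2508 without shCtrl 1). Members called numbered 5, and 3 to 5 with 1 library left out, 3 without shHOTAIR 2 or shCtrl 3. Where 11.5% of all genes tested were called higher and 12.4% lower, 8 genes of the 5 filament and anchor lists were called higher and 4 lower. With 1 library left out these were 2 to 7 (under 6 without any library but shHOTAIR 1) and 1 to 4 (4 without shCtrl 3, under 3 without any other), with regional centring 11 higher and 2 lower, and with median-of-ratios scaling 10 higher and 1 lower. Same-numbered libraries did not deviate together (correlations of -0.0307 to 0.00696), so the numbers were not taken to pair them. A replicate block gave 1740 genes, 3 members (limma adjusted p = 0.0627 for KRT8 and 0.0572 for KRT19), 4 list genes higher and 0 lower. Against KRT8 and KRT18 alone VIM stood at 0.835 in shHOTAIR and 3.26 in shCtrl, and with 1 library left out the ratio to all 7 keratins was 0.748 to 0.787 and 2.62 to 2.87. Changes that did not pass turned sign in CD44 (-0.042 to 0.087 with 1 library left out, below 0 without shHOTAIR 2, shHOTAIR 3 or shCtrl 1), ERBB2 (-0.23 to 0.0085), KRT10 (-0.11 to 0.029, 0.029 with regional centring and 0.034 with an equal protein-coding sum), MIR661 (-1.57 to 1.43, with 0.57 without shHOTAIR 1 or shHOTAIR 3), PDGFRB (-0.29 to 0.086, and 0.034 without shCtrl 1) and SYNM (-0.12 with regional centring). ZEB1, which passed, turned to 0.18 with regional centring. Over 44 named genes 10 alternative values gained a call, in LMNB2 (4), LAMB3 (3), LMNB1, SYNM and KDR (limma adjusted p = 0.0422 without a trend), and 108 lost one. GATA3 rose by 1.16 with regional centring, against 0.52 on the deposited scale. The cause of these changes was not tested.

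The 4 members below 1 FPKM did not pass in the fit without a filter, where the added 1 shrinks their changes, and the number of fragments behind them is not known. No rescaling moved the median of all genes by more than 0.0648 on the log2 scale.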
